A study of Mus musculus with 6 samples.

Results

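The complement genes described here are the 3 chains of C1q (C1qa, C1qb and C1qc), 2 further myeloid-type members (Cfp and C3ar1), 3 components (C3, C4b and Cfb) and 1 regulator (Cd55), 9 of the 23238 gene symbols measured in mouse liver sinusoidal endothelial cells (LSECs). They were chosen from measured values: the set was put together with the difference between the genotypes already known, so their levels and fold changes between genotypes are a description and carry no test. RNA was measured in 3 libraries of LSECs from TXNIP-/- mice, a total knockout of Txnip on the C57BL/6J background, and in 3 libraries from WT mice of the same background. LSECs, the fenestrated endothelial cells of the liver sinusoid, had been enriched on a density gradient and with magnetic beads against CD146, so the preparations can hold other cells of the liver, and the knockout is present in those cells too. Age, sex and diet of the sequenced mice and whether libraries of 1 genotype came from separate mice are not given in the sources used here. Selected LSECs were put in endothelial growth medium in the study, but whether those sequenced had been cultured is not stated. P-values therefore measure only the spread between these samples, which may be technical.

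Complement is a cascade of plasma and membrane proteins that tags microbes and dying cells for uptake and can lyse them. C1q recognises bound antibody or dying cells and starts the classical pathway, C4 and C2 carry the signal to C3, and factor B and properdin form and hold the alternative-pathway convertase that amplifies C3 cleavage. The small fragments C3a and C5a act through receptors on myeloid cells, and membrane regulators such as CD55 take convertases apart on host cells. In the liver, hepatocytes make most circulating components, whereas C1q is known mainly as a product of macrophages, among them the Kupffer cells that sit in the sinusoid.

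Each library held 9147764 to 10193952 counts, and 11583 of 23282 listed features passed the filter on low counts. Levels are CPM, counts scaled to a common library size with TMM factors. A QuantSeq read is meant to mark 1 transcript end, so levels of different genes were set side by side without a length term. Multiple alignments were counted too, so such comparisons between genes are approximate. At these depths 3 counts, taken as the floor, equal 0.286 to 0.335 CPM. Txnip itself was at 24.2 ± 5.15 CPM in TXNIP-/- and 196 ± 13.3 CPM in WT LSECs (SD, n = 3), and the libraries of the genotypes did not overlap. Of 15 endothelial markers, the 3 most abundant were Lyve1 at 1475 to 3780 CPM, Cdh5 at 1005 to 1210 CPM and Pecam1 at 833 to 1098 CPM over the 6 libraries. The least abundant were Clec4g at 6.01 to 9.34 CPM and Gpr182 at 7.03 to 21.3 CPM. The WT libraries were unequal, with replicates 1 and 2 much alike: the chi-square per degree of freedom was 3.93 between them, 37.0 and 40.2 against WT replicate 3, and 13.3 to 17.1 between WT replicate 3 and the TXNIP-/- libraries. The rRNA precursor Rn45s took 10.03% and 9.68% of counts in WT replicates 1 and 2 and 16.8% to 18.6% in the other libraries.

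The promoters of the members are shown because the macrophage-type members were low together in the TXNIP-/- libraries while Cd55 and C3 were not. RefSeq sequences of 250 bases before to 50 bases after the start (GRCm38.p6) were at hand for 6 of the 9 members, all on the minus strand, and are written in the direction of transcription. Capitals mark GAGGAA or its reverse complement TTCCTC, the purine-rich core bound by PU.1 and other ETS factors; PU.1 is a leading regulator of macrophage genes. C1qb lies at chr4:136886151-136886450, C1qc at chr4:136892865-136893164, Cfp at chrX:20931506-20931805, C3ar1 at chr6:122856108-122856407, C3 at chr17:57228087-57228386 and Cd55 at chr1:130462695-130462994.
C1qb: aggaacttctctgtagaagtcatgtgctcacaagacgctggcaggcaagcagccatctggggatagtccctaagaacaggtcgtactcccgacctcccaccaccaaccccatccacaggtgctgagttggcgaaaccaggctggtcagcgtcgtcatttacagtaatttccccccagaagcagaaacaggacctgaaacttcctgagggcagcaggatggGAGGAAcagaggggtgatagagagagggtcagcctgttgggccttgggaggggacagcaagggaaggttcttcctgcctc
C1qc: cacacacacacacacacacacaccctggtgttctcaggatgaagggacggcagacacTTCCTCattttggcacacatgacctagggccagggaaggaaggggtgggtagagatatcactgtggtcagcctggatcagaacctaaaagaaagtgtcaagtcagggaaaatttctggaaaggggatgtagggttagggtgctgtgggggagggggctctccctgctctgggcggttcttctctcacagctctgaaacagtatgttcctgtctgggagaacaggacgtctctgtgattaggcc
Cfp: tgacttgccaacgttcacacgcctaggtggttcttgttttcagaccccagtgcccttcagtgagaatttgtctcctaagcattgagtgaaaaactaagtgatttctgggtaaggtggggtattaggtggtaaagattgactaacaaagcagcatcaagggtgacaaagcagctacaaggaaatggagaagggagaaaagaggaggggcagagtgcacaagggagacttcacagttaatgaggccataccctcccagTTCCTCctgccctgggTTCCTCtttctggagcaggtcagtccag
C3ar1: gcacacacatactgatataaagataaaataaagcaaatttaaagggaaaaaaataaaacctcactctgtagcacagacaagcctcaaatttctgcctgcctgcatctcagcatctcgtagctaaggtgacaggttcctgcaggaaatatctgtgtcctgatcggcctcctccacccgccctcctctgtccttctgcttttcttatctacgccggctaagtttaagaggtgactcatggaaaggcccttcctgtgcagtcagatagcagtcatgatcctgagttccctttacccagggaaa
C3: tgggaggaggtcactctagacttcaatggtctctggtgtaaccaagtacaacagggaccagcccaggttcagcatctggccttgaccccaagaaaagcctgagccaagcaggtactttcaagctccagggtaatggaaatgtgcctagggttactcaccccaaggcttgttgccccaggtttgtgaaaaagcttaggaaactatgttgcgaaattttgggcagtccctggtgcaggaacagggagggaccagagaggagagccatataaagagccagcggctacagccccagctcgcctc
Cd55: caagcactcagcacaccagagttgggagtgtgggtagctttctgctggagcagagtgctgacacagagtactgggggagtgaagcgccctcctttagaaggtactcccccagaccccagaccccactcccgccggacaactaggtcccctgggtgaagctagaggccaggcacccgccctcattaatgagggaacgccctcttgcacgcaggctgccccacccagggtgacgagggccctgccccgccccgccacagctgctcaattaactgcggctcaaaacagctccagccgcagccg

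GAGGAA on either strand was present at -30 in C1qb, at -193 in C1qc and at 7 and 23 in Cfp, counted from the start as 1. It was absent from C3ar1, C3 and Cd55, and 28.3% of 32851 mouse promoters of this length held it. TGCTGA, the half-site of MAF factors, was found on either strand in C1qb, C3ar1, C3 and Cd55 and in 19.5% of all promoters. TTGCNNAA, a C/EBP motif, was found in C3 alone of the 6, at -45, and in 10.8% of all promoters, and TATAAA was found in C3ar1 at -235 and in C3 at 15, against 13.6% of all promoters. No matches overlapped each other, and no motif was in all 4 of C1qb, C1qc, Cfp and C3ar1. The Cd55 promoter differed in composition, with 63.3% G and C and 12 CG pairs, against 46.0% to 56.3% and 2 to 6 pairs in the other 5 and medians of 52.7% and 7 over all promoters. A match of letters is a description of these windows and not a binding site.

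The C1q chains were the members with the largest difference, and the 3 genes had nearly the same one. C1q is a hexamer of trimers, each trimer made of 1 A, 1 B and 1 C chain, so the protein needs all 3 genes. C1qa, the A chain, had levels of 19.7, 26.4 and 21.4 CPM in TXNIP-/- replicates 1, 2 and 3 and of 60.2, 64.8 and 64.0 CPM in WT. Every TXNIP-/- library was far below every WT library. The fold change of C1qa between genotypes was -1.48 ± 0.15 (log2, SE), or 2.80-fold less in TXNIP-/-. In bulk samples, fewer macrophages in a preparation and less RNA per macrophage cannot be told apart.

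C1qb, the B chain, had 16.2, 22.8 and 17.5 CPM in the TXNIP-/- libraries and 58.5, 58.4 and 41.6 CPM in the WT libraries. WT replicate 3 was the lowest of the WT libraries and still above all 3 TXNIP-/- libraries, and the log2 fold change of C1qb was -1.48 ± 0.18 (SE). With a separate term for WT replicates 1 and 2, which leaves WT replicate 3 alone against the knockouts, it was -1.14. C1qc, the C chain, had 22.0, 14.5 and 28.5 CPM in the TXNIP-/- libraries and 64.2, 54.1 and 64.1 CPM in the WT libraries. Its knockout libraries spread more than those of the other chains, again without overlap with WT, and its log2 fold change was -1.49 ± 0.19 (SE). Leaving out each library in turn kept the fold change of C1qa between -1.62 and -1.40, of C1qb between -1.65 and -1.39 and of C1qc between -1.74 and -1.26.

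**Figure D1:**
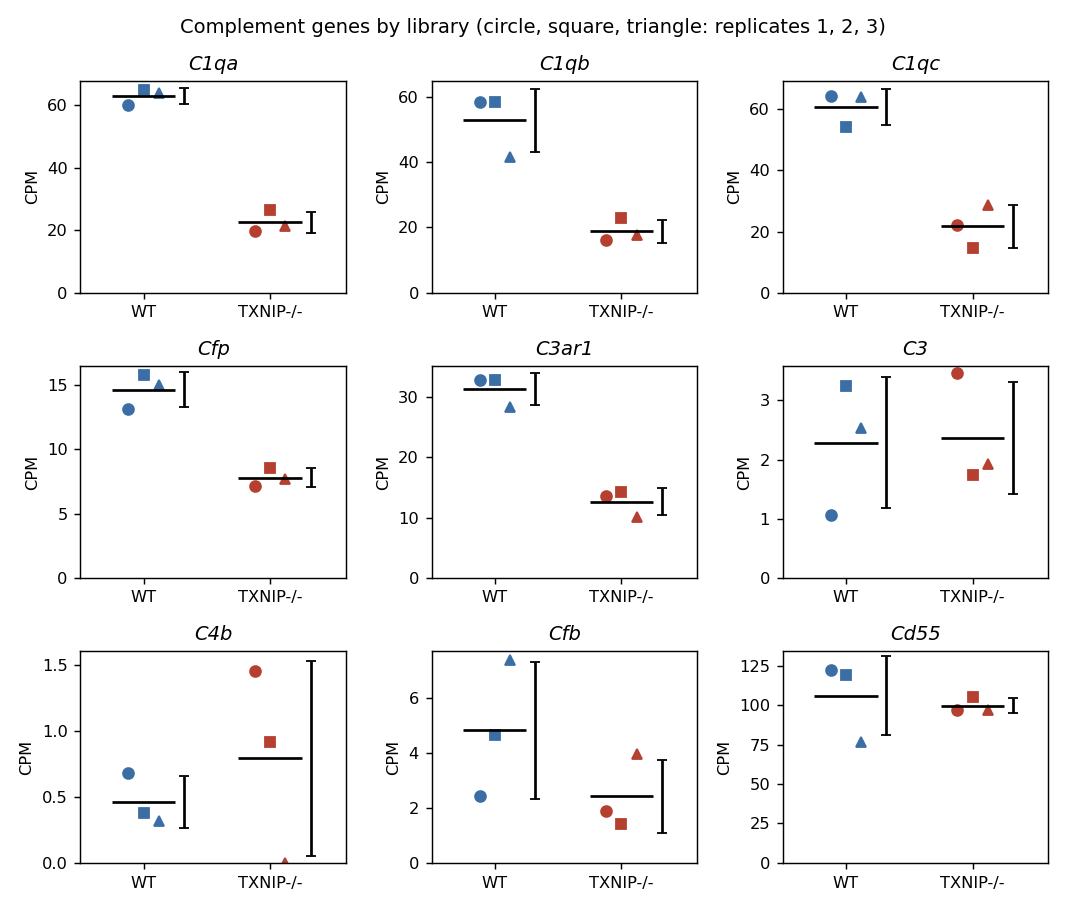
Level of each of the 9 complement genes in CPM (vertical axes from 0) for WT (blue) and TXNIP-/- (red) LSECs, with circle, square and triangle for replicates 1, 2 and 3, a line at the mean and a bar of ± SD (n = 3). C1qa, C1qb, C1qc, Cfp and C3ar1 show no overlap between genotypes, whereas C3, C4b, Cfb and Cd55 do.

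The proportions of the chains varied between libraries. C1qa took 32.9% to 37.7% of the summed C1q counts in WT and 31.7% to 41.4% in TXNIP-/- LSECs, so the genotypes overlapped. C1qb took 24.5% to 32.9% in WT and 26.0% to 35.8% in TXNIP-/- LSECs. The library furthest from the others was TXNIP-/- replicate 2, where C1qc took 22.7% of 625 C1q counts (exact binomial 95% interval 19.5% to 26.2%), against 38.0% and 42.3% in the other TXNIP-/- libraries and 30.5% to 37.8% in WT. In WT replicate 3 it was C1qb that was low, at 24.5% (22.4% to 26.7%), below 31.99% and 32.9% in the other WT libraries. These intervals cover counting error only. No chain had a share that separated the genotypes.

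**Figure D2:**
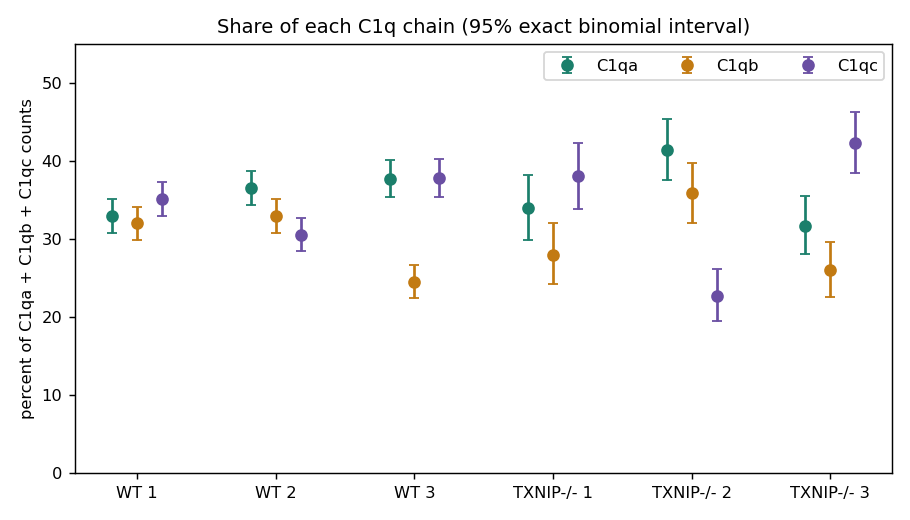
Share of C1qa (green), C1qb (orange) and C1qc (purple) in the summed counts of the 3 chains, in percent, for each library, with exact binomial 95% intervals. The shares of each chain overlap between genotypes, and TXNIP-/- replicate 2 has the lowest C1qc share, 22.7%.

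The 3 chains share their place in the genome. On GRCm38 (GENCODE M21) all lie on the minus strand of chromosome 4 within 18675 bases, C1qb from 136880129 to 136886187, C1qc from 136889804 to 136893065 and C1qa from 136895917 to 136898803, each with 3 exons. The nearest genes that passed the filter did not pass the test in either direction (edgeR quasi-likelihood, Benjamini-Hochberg). On one side Kdm1a, a histone demethylase gene 277406 bases away, had a log2 fold change of 0.10 ± 0.12 (adjusted p = 0.853). On the other, Zbtb40, 80929 bases away, had 0.01 ± 0.18 (adjusted p = 0.990). No other annotated gene overlaps the 3′ ends of the C1q genes. None of the 75-base stretches in the last 500 bases of their transcripts occurs exactly in a transcript of another annotated gene. Near-identical or unannotated copies were not searched for.

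Cfp and C3ar1, both known from myeloid cells, had no overlap between the genotypes either, a description since they were chosen on this contrast. Cfp encodes properdin, the plasma protein that stabilises the alternative-pathway C3 convertase, and lies on chromosome X from 20925454 to 20931555. Its levels were 7.15, 8.56 and 7.70 CPM in TXNIP-/- and 13.1, 15.8 and 15.0 CPM in WT replicates 1, 2 and 3. The genotypes did not overlap, and the log2 fold change was -0.91 ± 0.24 (SE), a smaller value than for the C1q chains. C3ar1 encodes the receptor for the fragment C3a and lies on chromosome 6 from 122847138 to 122856161. It had 13.6, 14.3 and 10.05 CPM in TXNIP-/- and 32.8, 33.0 and 28.3 CPM in WT LSECs, without overlap, and a log2 fold change of -1.31 ± 0.19 (SE). With single libraries left out, Cfp stayed between -0.98 and -0.85 and C3ar1 between -1.41 and -1.17.

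The central components had few counts in both genotypes. C3, the protein on which all pathways converge, had 3.46, 1.73 and 1.92 CPM in TXNIP-/- and 1.07, 3.24 and 2.54 CPM in WT LSECs. Its genotypes overlapped, and the log2 fold change of 0.05 ± 0.62 (SE) changed sign when single libraries were left out, from -0.32 to 0.39. Summed over libraries, C3 had 66 counts in TXNIP-/- and 69 in WT, or 2.35 (1.82 to 2.99) and 2.28 (1.78 to 2.89) CPM with exact Poisson 95% intervals, which again cover counting error only.

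Cfb, factor B, supplies the protease of the alternative convertase. Its levels were 1.90, 1.43 and 3.96 CPM in TXNIP-/- and 2.43, 4.67 and 7.40 CPM in WT LSECs, and the highest TXNIP-/- library lay above the lowest WT library. The log2 fold change of Cfb was -0.99 ± 0.55 (SE), and it ran from -1.54 to -0.55 with single libraries left out. Of the 75-base stretches in the last 500 bases of Cfb, 93.4% also belong to Gm20547, a read-through gene model on the same strand. Gm20547 is not among the gene symbols measured, so the counts cannot be assigned to Cfb with certainty. C4b, the C4 of the classical pathway, had 13, 9 and 0 counts in TXNIP-/- and 7, 4 and 3 counts in WT LSECs and was the member that did not pass the filter. Without a filter its log2 fold change was 0.75 ± 1.55 (SE), and no direction can be read from it. It shares 26.5% of these stretches with its copy C4a, which had 10, 2 and 0 counts in TXNIP-/- and 2, 3 and 17 in WT LSECs, so C4b is uncertain on this ground too. C3, C4b and Cfb are all on chromosome 17.

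Cd55 was the most abundant member in both genotypes and did not go with the C1q chains. It encodes decay-accelerating factor, a membrane protein that speeds the decay of C3 convertases on host cells, and lies on chromosome 1 from 130439027 to 130462744. Its levels were 96.6, 105 and 97.1 CPM in TXNIP-/- and 122, 119 and 76.9 CPM in WT LSECs. WT replicate 3 was the lowest of all 6 libraries and WT replicates 1 and 2 the highest, so the TXNIP-/- libraries lay within the range of WT. The log2 fold change of Cd55 was -0.09 ± 0.14 (SE), and it was 0.37 when those 2 WT libraries had their own term. The copy Cd55b, at 5.33 and 7.66 CPM in TXNIP-/- and WT, did not pass the test (log2 fold change -0.52 ± 0.40, edgeR adjusted p = 0.681), and 3.76% of the 75-base stretches in its last 500 bases also occur in Cd55 or Gm15674. None of those in the last 500 bases of Cd55 occurs exactly in a transcript of another annotated gene.

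The order of the mean levels was the same in both genotypes: Cd55, C1qa, C1qc, C1qb, C3ar1, Cfp, Cfb, C3 and C4b from highest to lowest. Within each genotype the libraries of C1qa, C1qc and C1qb overlapped between neighbours in this order, as did those of Cfb and C3, while the other neighbours did not. What differed was the distance between Cd55 and C1q. Cd55 had 106 ± 25.3 CPM in WT LSECs beside 63.0 ± 2.47 for C1qa, and 99.7 ± 4.90 CPM in TXNIP-/- LSECs beside 22.5 ± 3.51 for C1qa.

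Of the 9 members, 8 passed the filter, 4 (C1qa, C1qb, C1qc and C3ar1) were called lower in TXNIP-/- LSECs at an adjusted p under 0.05 and a fold above 1.3, and 0 were called higher. Over all 11583 features tested, 0.932% were called lower and 0.509% higher. In 5 members every TXNIP-/- library was below every WT library, and in 0 it was above, against 8.94% and 8.43% of all features. Because the members were chosen on this contrast, nothing is read from these counts. The 4 members above the filter that were not called were Cfp, Cfb, C3 and Cd55.

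The rest of the pathway does not enter the rule and was tested, with the limit that the list of its genes was also drawn up with earlier results of these data known. Of 52 further complement genes in that list, 50 were listed in the files and 24 passed the filter; 4 fell and 0 rose in TXNIP-/- LSECs (edgeR, adjusted over all features tested). The 24 genes had a median log2 fold change of -0.40, beside -2.75e-05 over all features, with 16 negative and 8 positive. The 4 that fell were 16.7% of the 24, against 0.932% of all features called lower. They were 3 genes of the receptor list and 1 of the regulator list. Among 7 initiators of the classical and lectin pathways and 1 terminal component that passed the filter, none was called, and the other 26 listed genes were below the filter, with C1s2, Mbl1, Fcnb and C7 at 0 in every library.

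Vsig4, the C3b and iC3b receptor of tissue macrophages, had 29.4, 22.0 and 30.8 CPM in TXNIP-/- and 79.1, 67.5 and 82.5 CPM in WT LSECs. It fell by 1.48 ± 0.15 on the log2 scale (edgeR adjusted p = 1.18e-05), without overlap, which is nearly the value of the C1q chains. Lrp1, a large endocytic receptor that can act with calreticulin in C1q-dependent uptake, had 9.83, 8.77 and 5.35 CPM in TXNIP-/- and 23.5, 18.2 and 26.4 CPM in WT LSECs. It fell by 1.51 ± 0.25 (edgeR adjusted p = 0.00313). Both kept their call whichever of the 6 libraries was dropped.

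Itgb2, the shared beta chain of the complement receptors CR3 and CR4, had 1.67, 2.85 and 3.74 CPM in TXNIP-/- and 8.66, 10.6 and 7.09 CPM in WT LSECs. It fell by 1.66 ± 0.39 (edgeR adjusted p = 0.0388) and lost its call in 4 of 6 fits with a library left out (without TXNIP-/- replicate 1 or 2 or WT replicate 1 or 2), with an adjusted p of up to 0.275 and a log2 fold change of -1.69 to -1.41 in those 4 fits. The alpha chains of CR3 and CR4, Itgam and Itgax, did not pass the filter. Itgam had 2, 0 and 3 counts in TXNIP-/- and 5, 3 and 4 in WT LSECs. Itgax had 1 count in WT replicate 1 and 0 in the other libraries. Cd59a, a membrane inhibitor of the terminal attack complex, was a more abundant regulator, with 52.5, 61.5 and 52.3 CPM in TXNIP-/- and 85.5, 92.9 and 79.8 CPM in WT LSECs. It fell by 0.63 ± 0.12 (edgeR adjusted p = 0.00741), and the call was lost without TXNIP-/- replicate 1 or 3 or WT replicate 2, with an adjusted p of up to 0.0697. When WT replicates 1 and 2 had their own term, which leaves 1 WT library against the knockouts, Itgb2 had -1.36 and Cd59a -0.52 and neither was called. The difference between Cd59a and Cd55, both membrane regulators, was not tested.

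The most abundant genes of the pathway did not pass the test. Cd93, an endothelial membrane protein once described as a C1q receptor, had 2785 to 2907 CPM in TXNIP-/- and 2448 to 2639 CPM in WT LSECs (log2 fold change 0.18, edgeR adjusted p = 0.256). Calr, calreticulin, had means of 899 and 824 CPM (0.13, adjusted p = 0.590), and Cr1l, the rodent convertase regulator Crry, had 85.6 and 86.4 CPM (-0.01, adjusted p = 0.982). C1qbp, a mainly mitochondrial protein that binds C1q, had 191 to 195 CPM in TXNIP-/- and 135 to 162 CPM in WT LSECs, without overlap, and missed the threshold (0.38 ± 0.09, edgeR adjusted p = 0.0519). It was called higher in 6 of 18 alternatives, among them DESeq2 (adjusted p = 0.00790), limma-trend (0.0441), RLE factors (0.0496) and the fit without WT replicate 3 (0.00515). Over all 18 the log2 fold change of C1qbp was 0.25 to 0.46 and the adjusted p 0.00515 to 0.353.

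**Figure D3:**
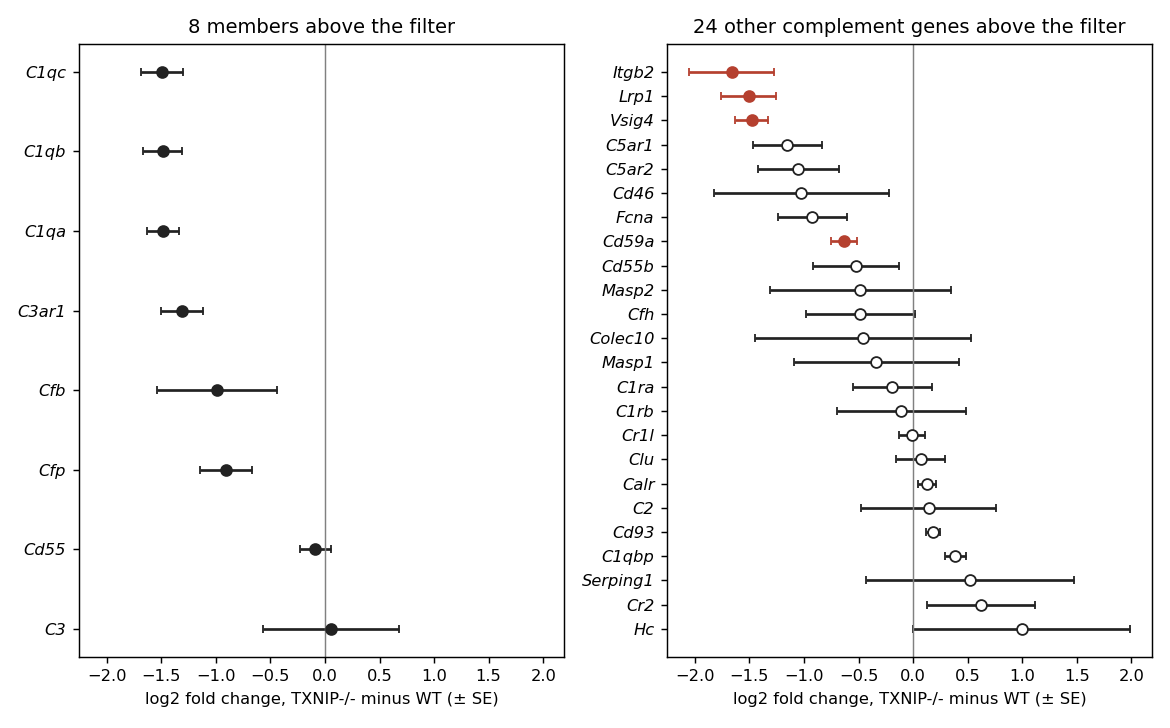
Log2 fold change between TXNIP-/- and WT LSECs with its SE for the 8 members above the filter (left, not tested) and the 24 other complement genes above the filter (right). Filled red points on the right are the 4 genes that passed the test, Itgb2, Lrp1, Vsig4 and Cd59a, and open points did not pass.

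Markers of macrophages moved with the C1q chains. Of 24 macrophage markers, with no C1q gene among them, 21 passed the filter, all 21 had a lower mean in TXNIP-/- LSECs, 14 fell (edgeR) and 0 rose, and 18 did not overlap. Over all features, 0.932% were called lower and 8.94% had every TXNIP-/- library below every WT library. The macrophage list, too, was drawn up with earlier results of these data known. Their median log2 fold change was -1.24, from -2.07 for the scavenger receptor Cd163 to -0.04 for Hmox1. The 3 most abundant were Hmox1 (410 and 421 CPM in TXNIP-/- and WT), Marco (83.2 and 175 CPM) and Slc40a1 (89.3 and 121 CPM). Of these Marco, a scavenger receptor of Kupffer cells, fell by 1.07 ± 0.10 (edgeR adjusted p = 5.23e-06), while the heme oxygenase Hmox1 (adjusted p = 0.944) and the iron exporter Slc40a1 (adjusted p = 0.0797) did not pass. No macrophage marker was at 0 in every library. Ms4a7, which did not pass the filter, was at 0 in the 3 TXNIP-/- libraries and had only 2, 9 and 13 counts in WT replicates 1, 2 and 3. The C1q chains lay within the range of these markers: 5 of the 21 had a more negative fold change than any C1q chain and 16 a less negative one. Vsig4 is in this list and among the complement receptors.

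The summed level of the macrophage markers was 846 to 977 CPM in TXNIP-/- and 1365 to 1495 CPM in WT LSECs. The 3 C1q genes together were at 0.0684, 0.0652 and 0.0780 of that sum in TXNIP-/- and at 0.134, 0.128 and 0.114 in WT replicates 1, 2 and 3, a log2 ratio of the means of -0.83 without overlap. Hmox1 and Slc40a1 made up a large part of the sum and are also expressed by other liver cells. Without them, a choice made after seeing the data, the ratio was 0.159 ± 0.0108 in TXNIP-/- and 0.203 ± 0.0113 in WT LSECs (SD, n = 3), a log2 ratio of -0.35, again without overlap. The same ratio without Hmox1 and Slc40a1 was 0.0197 ± 0.00217 in TXNIP-/- and 0.0169 ± 0.00192 in WT LSECs for Cfp (log2 0.23) and 0.0320 ± 0.00652 and 0.0361 ± 0.00387 for C3ar1 (log2 -0.17), both with overlap, and with the whole list it was -0.25 for Cfp and -0.66 for C3ar1 on the log2 scale. These sums weigh the abundant markers most. Marco and Cd5l, the most abundant without Hmox1 and Slc40a1, had log2 fold changes of -1.07 and -0.99. Of the 21 markers above the filter, 5 had a more negative fold change than C1q, such as Ctss (-1.75) and Cd163 (-2.07), and 16 a less negative one. The ratios therefore depend on which markers are abundant. The part of macrophage content in the levels of C1q, Cfp and C3ar1 was not tested.

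**Figure D4:**
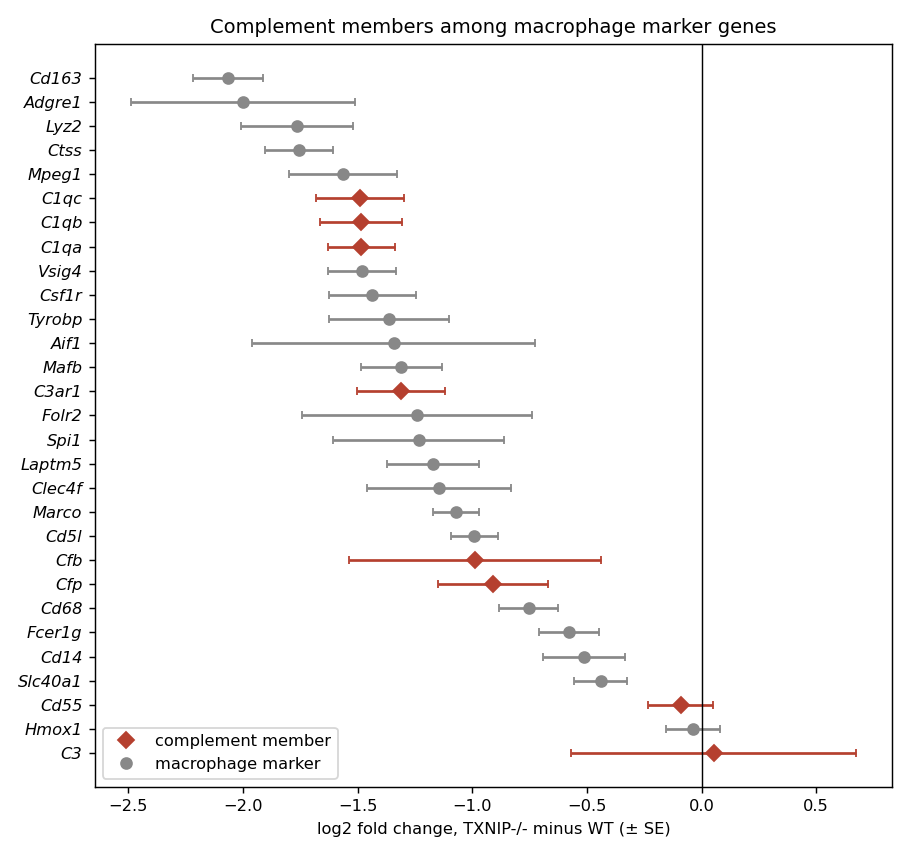
Log2 fold change between TXNIP-/- and WT LSECs with its SE for the 8 members above the filter (red diamonds) and the 21 macrophage markers above the filter (grey circles), ordered by value. C1qa, C1qb, C1qc, C3ar1, Cfb and Cfp stand among the markers, and Cd55 and C3 stand near 0 beside Hmox1.

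Over the 6 libraries, the genes whose profile was nearest to the mean profile of the C1q chains were Mpeg1, Tyrobp, Gpnmb, Lyz2, Ctss, Plek, Csf1r and Vsig4, with root-mean-square differences of 0.11 to 0.19 in centred log2 CPM among 8019 genes compared. Mpeg1, a pore-forming protein of macrophages, was nearest, with 5.58, 6.83 and 7.38 CPM in TXNIP-/- and 22.0, 17.3 and 19.3 CPM in WT LSECs. Of these 8 genes, 6 are in the macrophage list, and Gpnmb, at 33.0 and 86.5 CPM in TXNIP-/- and WT, and Plek are not. Nearest to Cd55 were Dpp9 (0.034), Tubgcp4, Rpl21, Zfr and Srebf1, none of them a complement gene, all with their lowest level in WT replicate 3. Nearest to C3 were Pcdh12 (0.22), Thap11, Hps1, Unc45a and Rara, with WT replicate 1 the lowest library in 3 of them and TXNIP-/- replicate 2 in Thap11 and Unc45a. Likeness over 6 libraries is a description, since libraries of a group share their genotype.

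Markers of other cells are given for the same libraries, from lists also drawn up with earlier results of these data known. The 15 endothelial markers summed to 5126 to 5593 CPM in TXNIP-/- and 5932 to 7762 CPM in WT LSECs, with a median log2 fold change of -0.28. Lyve1 made up a large part of these sums and was not called. It had 1475, 1642 and 1976 CPM in TXNIP-/- and 3482, 3780 and 1520 CPM in WT replicates 1, 2 and 3. All 15 had a lower mean in TXNIP-/- LSECs, 6 did not overlap, and 2 were called lower (edgeR), Stab1 and Mrc1, of which Mrc1 is known from macrophages too. The shares over all features were 8.94% and 0.932%. Stab2 had an edgeR adjusted p of 0.0448 without overlap, but its fold of 1.287 was below the threshold of 1.3. Of 16 hepatocyte markers, 9 passed the filter and 0 were called, and the sums were 65.0 to 69.7 CPM in TXNIP-/- and 58.0 to 61.8 CPM in WT, led by Alb, Trf and Apoa1. Of 12 stellate cell markers, 10 passed, all 10 had a higher mean in TXNIP-/- LSECs, and 2 rose (edgeR), Dcn and Acta2, with sums of 63.2 to 78.4 CPM against 30.6 to 37.2 CPM. Over all features, 0.509% were called higher. Of the mesothelial and dendritic cell markers 2 each passed the filter and of the cholangiocyte markers 1, with 0 called. No neutrophil or lymphocyte marker passed the filter.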

How the data were processed

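RNA of LSECs was measured in 3 TXNIP-/- and 3 WT libraries with a QuantSeq 3′ mRNA-Seq kit and single-end 75-base reads. The authors aligned the reads with Bowtie2 to mm10 and counted unique and multiple alignments with bedtools, per the study's methods and the submitters' processing notes, and deposited whole-number counts per gene symbol without normalization. Versions, annotation and use of strand are not given in the sources used here, and counting multiple alignments can give reads to each copy of a gene. All 6 libraries were used.

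Counts were analysed in R 4.3.3 with edgeR 4.0.16 (filterByExpr, TMM, glmQLFit and glmQLFTest, genotype as the single term, Benjamini-Hochberg adjustment over 11583 features). Genes were called at an adjusted p under 0.05 and a fold above 1.3. The code was tested on simulated data. Profiles used log2 CPM with a prior count of 2, for genes of at least 10 CPM. Positions are from GENCODE M21 on GRCm38. The members and lists were chosen with earlier results of these data known. Named are all members, the other complement genes that were called or above 50 CPM, the 8 genes nearest to C1q and the 5 nearest to C3 and to Cd55, the most abundant markers, and copies of members. Kdm1a, Zbtb40 and single marker genes were added later. Deviations of same-numbered libraries from their group means correlated at -0.030, 0.017 and -0.047, which gives no sign of pairing by number. Alternatives were DESeq2 1.42.0, limma 3.58.1 (limma-trend), other scaling factors, filters and thresholds, a replicate block, each library left out, Rn45s left out and a term for WT replicates 1 and 2.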

Additional observations from a re-analysis of the deposited data

How the results depend on the processing

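The fold changes of C1qa, C1qb, C1qc, Cfp and C3ar1 stayed negative in the alternatives run, which is a description since they were chosen on this contrast. The number of genes called, 167 in the main setting, was 301 with no filter on low counts, 108 with the replicate block, 57 when a log2 fold change beyond 1.3 was asked for, and 89 to 301 with single libraries left out. Without WT replicate 3 it was 301, of which 147 were shared with the main setting. The number of other complement genes called, 4 in the main setting, was 7 with no filter, adding C1qbp, C5ar1 and Fcna (the last 2 named after their values were seen), 2 with the term for WT replicates 1 and 2, and 2 to 5 with single libraries left out. The replicate block took the call from Itgb2 and left 13 macrophage markers called, against 14. The median log2 fold change of the macrophage markers was -1.45 when WT replicates 1 and 2 had their own term. The log2 ratio of summed C1q to macrophage markers was -0.35 without Hmox1 and Slc40a1. The term for WT replicates 1 and 2 also moved C1qb to -1.14 and Cd55 to 0.37. The cause of these changes was not tested, beyond the number of features tested (16763 without a filter) and of libraries. With no normalization factors, 145 genes were called lower and 35 higher, against 108 and 59, Cfp was called as well, and the median of all genes moved by -0.08. Depth limits C3, C4b and Cfb, which had 14 to 144 counts over the 3 libraries of a genotype.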
